A study of Homo sapiens with 6 samples.

Results

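The genes described here encode the phosphoinositide 3-kinase (PI3K), AKT and mTOR pathway, measured in 786-O cells with and without knockdown of ERCC6L, a DNA translocase of anaphase. A list of 41 pathway genes was matched to the probe sets that GEO's platform annotation gives a single gene symbol. It found 156 probe sets of 38 genes, out of 44988 such probe sets of 18132 genes in the value table. PIK3CA, PIK3R2 and LAMTOR1 were not analysed here. The list was not chosen from measured values, but it was drawn up with earlier results of these data known.

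The 6 single-channel Affymetrix arrays came from 786-O cells, an established human line of renal cell carcinoma that lacks functional VHL. The 3 control arrays are labelled shNC, and the other 3 carry a short hairpin RNA (shRNA) against ERCC6L (shERCC6L). The treatment text describes lentivirus with the ERCC6L hairpin and does not describe the shNC vector separately, and both groups grew in the same serum-containing medium. The time after infection and the number of hairpins are not stated, so loss of ERCC6L and other effects of a hairpin cannot be told apart. Nor is it stated whether replicates were separate cultures, so p-values measure only the spread between these arrays, possibly a technical one. ERCC6L itself measured 239.9, 244 and 261 in shNC and 97.6, 97.5 and 97.8 in shERCC6L, a fall of 1.22 ± 0.039 on the log2 scale (SE; limma adjusted p = 1.6e-07). All 10 renal carcinoma cell markers looked up were measured, and all 10 lay at or above the median level of all genes, while 0 of 4 leukocyte, 0 of 5 endothelial and 0 of 5 fibroblast markers did. Of those 14 markers, COL1A1 and PDGFRA of the fibroblast list fell on their brightest probe sets, by 0.38 and 0.15 on the log2 scale. On 1 of 5 and 1 of 4 probe sets these genes were lower, and averaged over probe sets, at -0.069 and -0.043, neither passed (limma adjusted p = 0.190 and 0.217). LUM of the same list was at 0.10 and did not pass, and the list's summed signal ran from 172 to 176 over the controls and from 146 to 149.8 over shERCC6L. The summed signal of the endothelial list was 228 to 236 and 220.01 to 230.2, and that of the leukocyte list 51.6 to 59.4 and 52.4 to 56.5. None of the 3 lists had a marker listed at 0, and their part in the results was not tested. PAX8, a renal lineage factor, rose by 0.34, and CDH6 and EPAS1 fell by 0.50 and 0.36.

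PI3K is switched on by growth factor receptors, often through adaptors such as the insulin receptor substrates, and makes a lipid messenger at the plasma membrane. The messenger draws in the kinases PDPK1 and AKT, which hold back the FOXO transcription factors and the TSC1-TSC2 brake, so that the GTPase RHEB can activate mTOR complex 1. Amino acids act in parallel through the Rag GTPases and the Ragulator scaffold, which bring the complex to the lysosome, where it phosphorylates S6 kinases and the 4E-BP inhibitors of cap-dependent translation. The pathway is a known drug target in renal cell carcinoma. Its activity is set by phosphorylation, which these transcript data do not measure.

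The members with the largest fall and the largest rise both belong to the lysosomal arm, and their upstream sequences are shown with that of the cap-binding gene EIF4E, whose upstream stretch holds the same motif as that of RRAGC. Each is the 250 bases before a RefSeq transcription start, and capitals mark CACGTG, the E-box core that also lies in the binding element of lysosomal regulators of the MiT/TFE family.
LAMTOR3 upstream of the start, chr4:99894547-99894796, minus strand, GRCh38.p14: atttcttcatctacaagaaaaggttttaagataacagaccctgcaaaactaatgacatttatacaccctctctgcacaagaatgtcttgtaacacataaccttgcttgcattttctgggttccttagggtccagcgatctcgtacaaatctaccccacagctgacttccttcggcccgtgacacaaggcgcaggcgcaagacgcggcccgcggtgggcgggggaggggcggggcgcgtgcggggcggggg
RRAGC upstream of the start, chr1:38859773-38860022, minus strand, GRCh38.p14: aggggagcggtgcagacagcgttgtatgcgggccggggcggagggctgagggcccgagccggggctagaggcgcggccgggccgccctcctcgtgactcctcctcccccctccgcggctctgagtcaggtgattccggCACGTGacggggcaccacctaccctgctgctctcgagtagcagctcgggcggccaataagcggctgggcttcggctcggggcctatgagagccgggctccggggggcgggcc
EIF4E upstream of the start, chr4:98929134-98929383, minus strand, GRCh38.p14: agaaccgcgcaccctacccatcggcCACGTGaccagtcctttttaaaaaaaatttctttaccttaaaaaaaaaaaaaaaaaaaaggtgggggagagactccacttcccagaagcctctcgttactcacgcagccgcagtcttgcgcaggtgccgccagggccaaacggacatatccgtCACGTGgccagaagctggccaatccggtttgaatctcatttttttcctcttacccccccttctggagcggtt
LAMTOR3 has 2 starts in the table, of which the first is shown.

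RRAGC had 1 E-box core, whose first base lies 112 bases before the start. EIF4E had 2, at 225 and 72 bases before it, and LAMTOR3 had 0. The RefSeq table held promoters for 36 of the 41 listed genes, leaving MLST8, DEPTOR, RRAGA, RRAGD and EIF4EBP1 without one. In windows of 300 bases around their 61 starts, both strands searched, CACGTG occurred in 6 windows (9.84%), against 7.26% of all 35116 windows. Those genes were IRS1, INPP4B, TSC2, RRAGC, LAMTOR1 and EIF4E, among which RRAGC was higher, EIF4E was lower and IRS1, INPP4B and TSC2 did not pass the test on their brightest probe sets. TGACGT, the core of the cyclic AMP response element, lay in 4 windows (6.56%, against 7.98% of all), those of PIK3C2A, AKT2, RHEB and EIF4EBP2. The first 3 of these genes fell and EIF4EBP2 rose. The FOXO motif GTAAACA lay in 1 window (1.64%, against 3.42%), that of PIK3CA. No window held more than 1 of the 3 motifs, and a match describes the sequence only. Of the MiT/TFE genes looked up, MITF fell by 0.14, and TFEB and TFE3, at -0.090 and 0.0023, did not pass. Their part in the changes of these genes was not tested.

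Among the 38 measured genes, 13 were higher and 10 lower in shERCC6L at an adjusted p under 0.05 (limma across all genes, Benjamini-Hochberg). That is 60.5%, where 31.6% of all genes passed, 18.2% higher and 13.4% lower. Most pathway genes are well expressed in these cells, and calls were more frequent among brighter genes. At or above the median level stood 34 of the 38, of which 22 passed, 13 higher and 9 lower, against 52.4% of all genes at that level, 32.8% higher and 19.6% lower. The median log2 fold change was 0.043 for the pathway genes and -0.011 for all genes, and the median absolute change 0.208 and 0.075. Among genes of the whole data that reached the median level, these medians were 0.036 and 0.137. The groups did not overlap for 30 of the 38 genes, against 43.4% of all genes and 64.5% of those reaching the median level. A change of at least 2-fold was seen for 1 of the 38 genes, LAMTOR3, as for 0.408% of all genes. All fold changes are on the log2(signal + 16) scale, shERCC6L over shNC, which understates the change of dim genes, and rest on each gene's brightest probe set unless stated. In these bulk samples fewer cells of a type and less RNA per cell cannot be told apart.

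**Figure D1:**
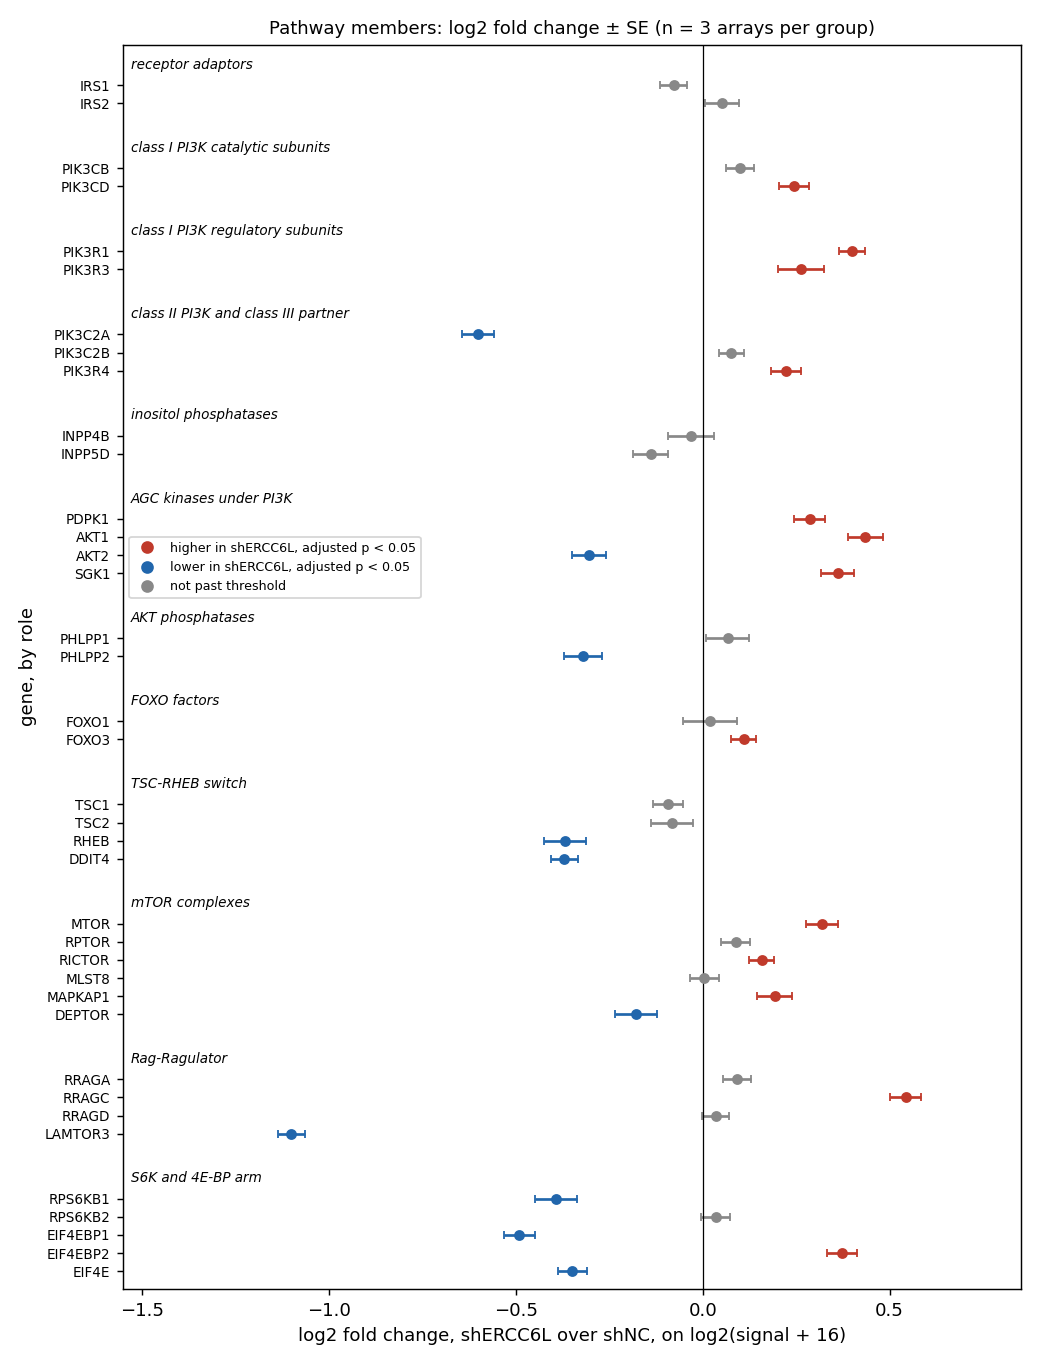
Log2 fold change (shERCC6L over shNC, on log2(signal + 16)) of the 38 measured pathway genes, ordered by role, with standard errors from limma (n = 3 arrays per group). Red points passed as higher (13), blue as lower (10) and grey did not pass. LAMTOR3, at -1.10, and RRAGC, at 0.54, mark the lower and upper ends.

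At the top of the pathway neither adaptor transcript passed on its brightest probe set. IRS1, the insulin receptor substrate shared by the insulin and IGF1 receptors, had a log2 fold change of -0.078 ± 0.037 (SE, n = 3 per group) and passed only with quantile normalization among the alternatives (-0.11, adjusted p = 0.0333). IRS2 stood at 0.052 ± 0.047 on its brighter probe set, which did not pass, while its other probe set rose by 0.23. With both averaged, IRS2 rose by 0.14 (limma adjusted p = 0.0047).

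The subunits of class I PI3K that passed were all higher. Among the catalytic subunits, PIK3CD, which encodes p110-delta, rose by 0.24 ± 0.041, from 318 ± 13.9 to 379 ± 9.39 (SD, n = 3 per group). Only that brightest of its 4 probe sets passed, and the averaged change of 0.07 did not (adjusted p = 0.108). PIK3CB, which encodes p110-beta, was at 0.10 ± 0.036 and did not pass on its brighter probe set (adjusted p = 0.0676). Its other probe set rose by 0.21, and the average of both by 0.15. PIK3CB passed in 5 of 17 alternatives, among them median centring (adjusted p = 0.0449).

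PIK3R1 encodes p85-alpha, the regulatory subunit that stabilises and restrains p110. The signal was 167, 161 and 167 in shNC and 228, 222 and 219 in shERCC6L. Every shERCC6L array thus lay above every shNC array, with a log2 fold change of 0.40 ± 0.034 (SE, n = 3 per group; limma adjusted p = 3.3e-05). Of its 8 probe sets, 7 rose and 1 did not pass. PIK3R3, which encodes p55-gamma, rose by 0.26 ± 0.062 on the brightest of its 5 probe sets, the others did not pass, and the average of 0.02 did not pass.

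The other PI3K classes divided. PIK3C2A, a class II kinase of endocytic membranes, measured 573, 625 and 579 in shNC and 389.7, 375 and 391 in shERCC6L. The 2 groups were far apart, the value being -0.60 ± 0.042 (SE, n = 3 per group; limma adjusted p = 1.0e-05). Of the 5 PIK3C2A probe sets 3 fell and the 2 dimmest did not pass, so that the averaged change was -0.26. Its paralog PIK3C2B was at 0.076 ± 0.034 and did not pass. PIK3R4, the VPS15 scaffold of the class III kinase that makes the lipid of early endosomes, rose by 0.22 ± 0.040. PIK3C3, the catalytic partner of PIK3R4 in the class III complex and not in the list of 41, rose by 0.25.

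The inositol phosphatases that remove the PI3K lipid products did not pass on their brightest probe sets. INPP4B was at -0.031 ± 0.060, although 3 of its 5 dimmer probe sets fell and the average of all 6 fell by 0.11 (limma adjusted p = 0.0091). INPP5D, also known as SHIP1 and best known from blood cells, was at -0.14 ± 0.047 (adjusted p = 0.0523). It passed as lower in 7 of 17 alternatives, among them the replicate block (adjusted p = 0.0329), quantile normalization (-0.16, adjusted p = 0.0248) and the fit without shNC replicate 2 (-0.17, adjusted p = 0.0376).

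All 4 kinases that act directly below PI3K passed, 3 of them higher. PDPK1, which phosphorylates the activation loop of AKT, rose by 0.29 ± 0.042, from 202 ± 8.72 to 250.4 ± 8.27 (SD, n = 3 per group). Of its 6 probe sets 4 rose and 2 did not pass, and averaged PDPK1 rose by 0.19. SGK1, a kinase related to AKT that mTOR complex 2 activates, measured 192, 174 and 185 in shNC and 233, 248 and 241 in shERCC6L. The SGK1 groups did not overlap and all 4 of its probe sets rose, the brightest by 0.36 ± 0.043 (SE; adjusted p = 2.3e-04).

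AKT1 and AKT2, paralogous kinases with overlapping substrates, changed in opposite directions. AKT1 measured 529.9, 475 and 506 in shNC and 663, 699.6 and 696 in shERCC6L, a rise of 0.44 ± 0.046 (SE, n = 3 per group; limma adjusted p = 1.0e-04). AKT2 measured 586, 575 and 585 in shNC and 498, 471 and 438 in shERCC6L, a fall of 0.30 ± 0.047 (adjusted p = 9.5e-04). In both cases the 2 groups of arrays were separate. For AKT1, 2 of 3 probe sets rose and the dimmest, at signals of 23.6 to 26.1, did not pass. For AKT2, 8 of 12 probe sets fell, 4 did not pass and all 12 had negative values. Averaged over probe sets, AKT1 stood at 0.25 and AKT2 at -0.20.

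PHLPP1 and PHLPP2 dephosphorylate AKT. PHLPP2 measured 150.2, 152 and 148 in shNC and 108, 127 and 117 in shERCC6L. The highest shERCC6L array stayed below the lowest shNC array, with a change of -0.32 ± 0.052 (SE, n = 3 per group; limma adjusted p = 0.0013). The 2 other PHLPP2 probe sets, both dim, did not pass, and the averaged fall was 0.15. PHLPP1 was at 0.067 ± 0.057 and did not pass.

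**Figure D2:**
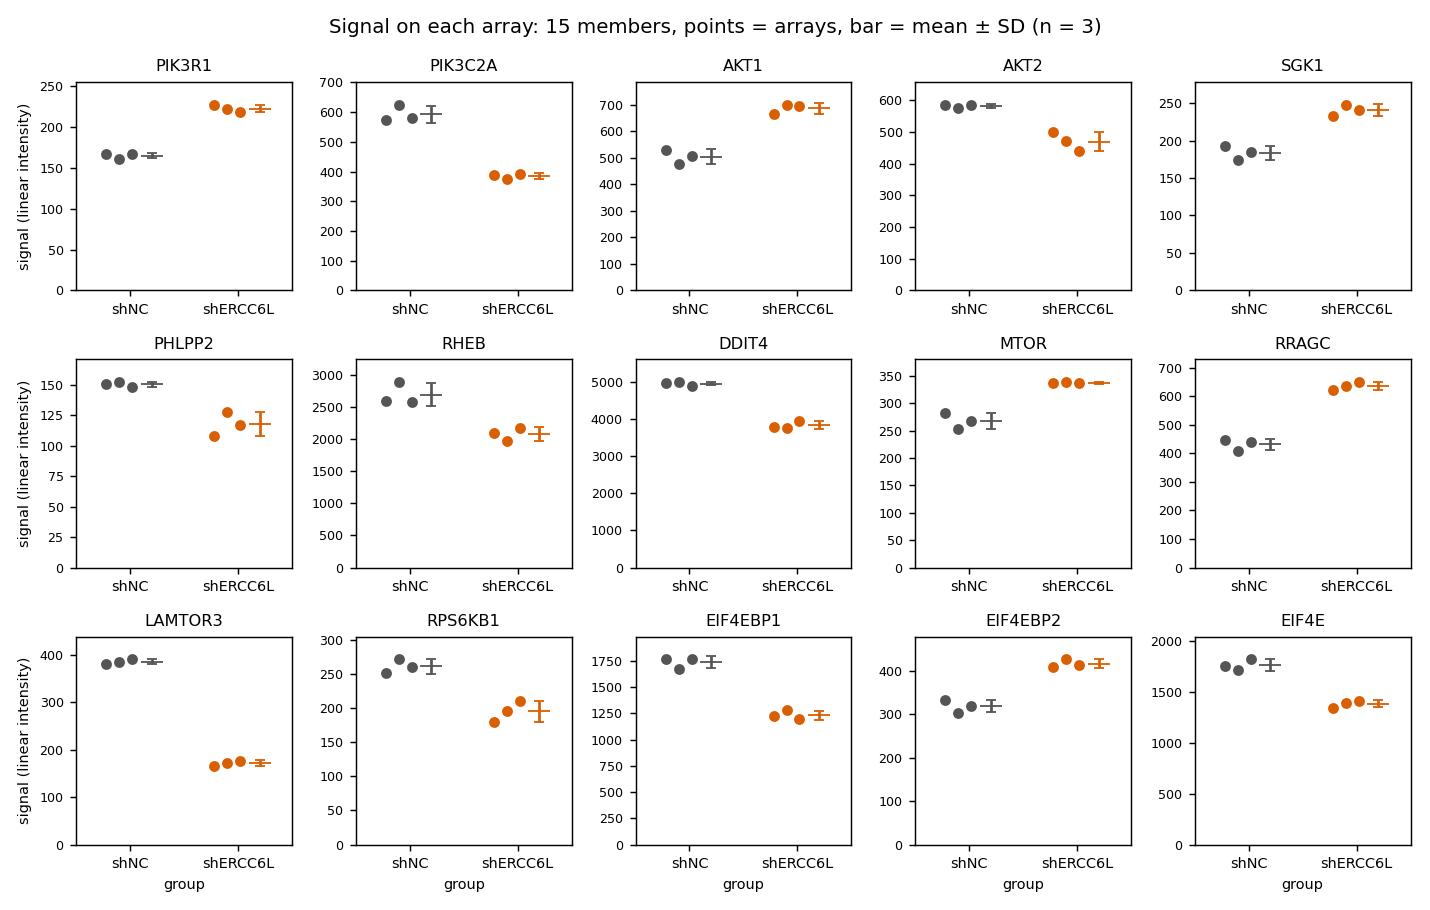
Deposited signal (linear intensity) on each array for the 15 pathway genes that passed with an absolute log2 fold change of at least 0.3. Points are arrays, grey for shNC and orange for shERCC6L, and bars give the mean and SD (n = 3). In each of the 15 panels the 2 groups do not overlap.

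Of the transcription factors FOXO1 and FOXO3, which AKT keeps out of the nucleus, FOXO3 passed with a small change. FOXO3 rose by 0.11 ± 0.033 (limma adjusted p = 0.0319), from 499 ± 10.2 to 539 ± 3.69 (SD, n = 3 per group). This call ended with quantile normalization, where the change was 0.069 (adjusted p = 0.172), with the replicate block (adjusted p = 0.0575), and without any 1 array other than shNC replicate 3 (adjusted p = 0.0677 to 0.0930). FOXO1 was at 0.019 ± 0.072 and did not pass.

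At the switch from AKT to mTOR complex 1, RHEB and DDIT4 fell, and TSC1 and TSC2 did not pass. RHEB, the GTPase that activates mTOR complex 1, measured 2591, 2895 and 2584 in shNC and 2092, 1968 and 2178 in shERCC6L. The shERCC6L arrays all lay below the shNC arrays, RHEB fell by 0.37 ± 0.055 (SE, n = 3 per group; limma adjusted p = 8.4e-04), and all 4 of its probe sets fell. DDIT4, also known as REDD1, is a stress-induced inhibitor that acts through TSC2. It was bright, at 4965, 5008 and 4903 in shNC and 3793, 3754 and 3958 in shERCC6L. Its single probe set fell by 0.37 ± 0.035 (SE; adjusted p = 5.7e-05), again with no overlap between groups. TSC1 and TSC2, subunits of the brake itself, were at -0.092 ± 0.039 and -0.082 ± 0.057, and none of their 4 and 2 probe sets passed. TSC1 passed as lower with probe sets averaged (-0.081, adjusted p = 0.0395) and with quantile normalization (-0.12, adjusted p = 0.0430), and TSC2 without shNC replicate 2 (-0.15, adjusted p = 0.0289). TBC1D7, another subunit of the brake, was measured among the further pathway genes described below. Its single probe set passed as lower, at -0.17 ± 0.039 (SE; limma adjusted p = 0.0089).

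Of the mTOR complex genes, 3 rose and 1 fell. MTOR, the kinase itself, measured 283, 253 and 268 in shNC and 336, 339 and 336 in shERCC6L. The shERCC6L arrays lay close together and above all shNC arrays, with a rise of 0.32 ± 0.043 (SE, n = 3 per group; limma adjusted p = 4.5e-04), which was 0.15 with its 3 probe sets averaged. RICTOR and MAPKAP1, the subunits that define mTOR complex 2, rose by 0.16 ± 0.034 and 0.19 ± 0.046. Of 9 MAPKAP1 probe sets 6 rose, but of 6 RICTOR probe sets only the brightest passed, and the averaged RICTOR change of 0.06 did not pass (adjusted p = 0.172).

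RPTOR, which defines mTOR complex 1, was at 0.088 ± 0.039 and MLST8, shared by both complexes, at 0.0046 ± 0.038. None of the 6 RPTOR and 4 MLST8 probe sets passed. DEPTOR, an inhibitor of both complexes, was dim, at 30.2 ± 0.870 in shNC and 24.9 ± 3.41 in shERCC6L (SD, n = 3 per group). Its fall of 0.18 ± 0.057 (limma adjusted p = 0.0396) was lost with median centring (-0.17, adjusted p = 0.0574), with the replicate block (adjusted p = 0.0515) and without any 1 array other than shERCC6L replicate 3. Its value was -0.12 without shERCC6L replicate 2 (adjusted p = 0.121).

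The lysosomal arm held the largest changes in both directions. LAMTOR3, also known as MP1, is a subunit of the Ragulator scaffold. It measured 382, 385 and 392 in shNC and 165, 172 and 177 in shERCC6L, which left 44.5% of the mean control signal. LAMTOR3 thus fell by 1.10 ± 0.036 (SE, n = 3 per group; limma adjusted p = 1.6e-07), or 2.14-fold, with wide separation of the groups. Its second probe set was dim, at 32.6, 34.2 and 30.5 in shNC and 16.7, 16.1 and 14.5 in shERCC6L, and fell by 0.61 ± 0.043. With the 2 averaged the fall was 0.85, under 2-fold.

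RRAGC encodes RagC, the partner of RagA or RagB in the heterodimer that docks mTOR complex 1. The brightest probe set measured 446, 410.3 and 439 in shNC and 622, 636 and 651 in shERCC6L. All shERCC6L arrays were higher, by 0.54 ± 0.041 (SE, n = 3 per group; limma adjusted p = 1.6e-05), or 1.46-fold. All 4 RRAGC probe sets rose, by 0.49 to 0.61. Its paralog RRAGD was dim, at 21.8 ± 1.01 in shNC and 22.7 ± 0.790 in shERCC6L (SD, n = 3 per group), and did not pass. RRAGA, the RagA gene, was bright at 2798 ± 87.7 and 2982 ± 52.1, and its change of 0.092 ± 0.037 did not pass (adjusted p = 0.0913). RRAGA passed as higher in 3 of 17 alternatives, with the lowest adjusted p, 0.0230, under trend and robust estimation.

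Downstream of mTOR complex 1, 3 of 5 members fell and 1 rose. EIF4EBP1 and EIF4EBP2 encode repressors that bind the cap-binding protein until mTOR phosphorylates them, and they changed in opposite directions. EIF4EBP1 measured 1769, 1672 and 1771 in shNC and 1224, 1279 and 1193 in shERCC6L, and all 3 of its probe sets fell, the brightest by 0.49 ± 0.041 (SE, n = 3 per group; limma adjusted p = 2.7e-05). EIF4EBP2 measured 333, 304 and 319 in shNC and 409, 428 and 414 in shERCC6L, and all 5 of its probe sets rose, the brightest by 0.37 ± 0.041 (adjusted p = 1.3e-04). For both genes the 2 groups were separate.

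EIF4E, the cap-binding protein itself, measured 1759, 1714 and 1827 in shNC and 1347, 1389 and 1417 in shERCC6L. It fell by 0.35 ± 0.038 (SE, n = 3 per group; limma adjusted p = 1.3e-04) without overlap, on 4 of 7 probe sets, and the 3 that did not pass had signals of 15.2 or less on every array. RPS6KB1, the S6 kinase gene whose product phosphorylates ribosomal protein S6, measured 250.6, 272 and 259.9 in shNC and 179, 195 and 211 in shERCC6L. The 2 groups were apart and the fall was 0.39 ± 0.056 (SE; adjusted p = 6.3e-04), but its probe sets disagreed. Of 7, 3 fell and 4 did not pass, 2 of those with positive values, and the averaged fall was 0.15. RPS6KB2, the second S6 kinase gene, was at 0.035 ± 0.038, and none of its 4 probe sets passed.

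The probe sets can be read gene by gene. Of the 156, 41 were higher and 33 lower with the test run over all probe sets (29% of all probe sets passed, 17% higher and 12% lower). None of the 38 genes had probe sets past the threshold in both directions. Of the 23 genes called, 8 had every probe set past the threshold, 2 of them with a single probe set. IRS2, PIK3CB and INPP4B did not pass on their brightest probe set but had others that did. Probe sets of a gene share a target and are not replicates. By the maker's naming, the brightest probe sets of 12 genes (ending in s) and 5 genes (ending in x: EIF4EBP1, RPS6KB1, RPS6KB2, FOXO3 and PIK3C2B) may bind other transcripts too.

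**Figure D3:**
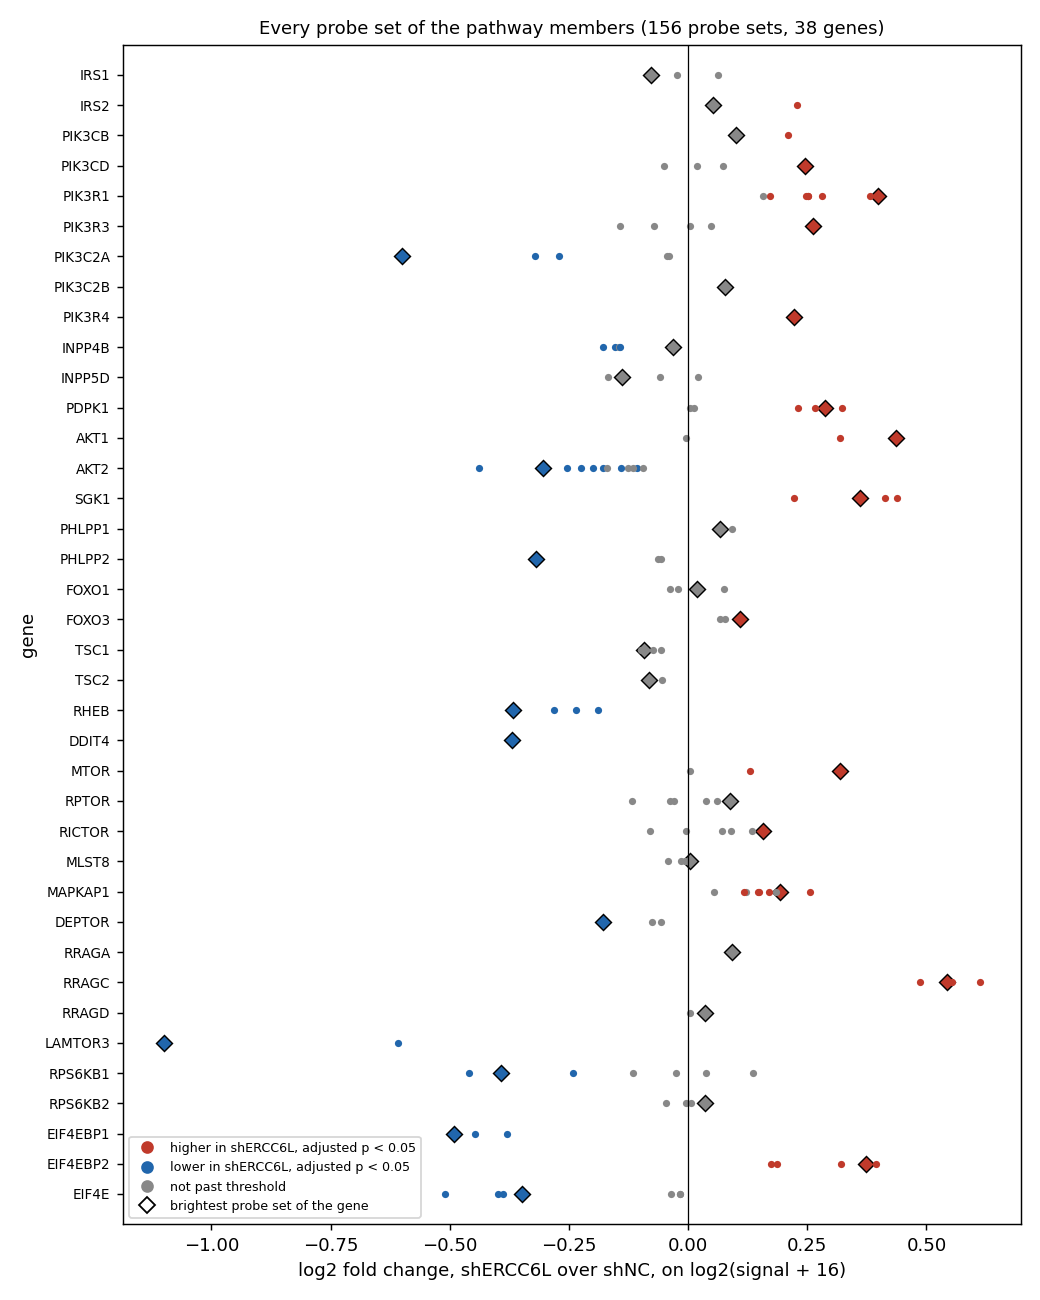
Log2 fold change (shERCC6L over shNC, on log2(signal + 16)) of all 156 probe sets of the 38 genes, 1 row per gene, with the brightest probe set as a diamond. Red passed as higher (41), blue as lower (33) and grey did not pass. Each row with coloured points has them on 1 side of 0.

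A list of 71 further genes of the pathway, of which 63 were measured, held 10 higher and 14 lower (38.1%, against 31.6% of all genes). Of the 40 genes in this list that reached the median level, 20 passed, against 52.4% of equally bright genes in the whole data. The list's largest change was in AKT1S1, which encodes PRAS40, a substrate of AKT and inhibitor of mTOR complex 1. It measured 142, 130.1 and 143 in shNC and 53.1, 52.4 and 51.5 in shERCC6L, a fall of 1.18 ± 0.041 (SE, n = 3 per group; limma adjusted p = 2.0e-07). All 3 AKT1S1 probe sets fell, and their average by 0.73, under 2-fold. PDCD4, a translation inhibitor that S6 kinase marks for degradation, fell on all 4 probe sets, from 485 ± 14.4 to 307 ± 24.95 (SD, n = 3 per group), or by 0.64 ± 0.055 (adjusted p = 3.4e-05).

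The remaining calls of that list, not all of them named here, ran across several arms. THEM4 fell by 0.42 and INPPL1 by 0.26, and PRKAA2 rose by 0.38. Averaged over probe sets, these 3 genes stood at -0.33, -0.19 and 0.26. Among receptor-proximal genes IGF1R, GAB1 and GRB10 fell on their brightest probe sets, by 0.38, 0.40 and 0.27. Averaged over probe sets IGF1R fell by 0.10 and GAB1 by 0.15, with 2 of 7 and 2 of 8 probe sets lower. GRB10 had 2 probe sets lower and 1 higher, and its average of 0.0089 did not pass. In the lysosomal arm SLC38A9, an arginine sensor, rose by 0.41 and the Ragulator gene LAMTOR4 by 0.30. The Ragulator genes LAMTOR2 and LAMTOR5, at 0.01 and -0.03, did not pass. In the GATOR2 complex, which relieves an inhibitor of the Rags, SEH1L and WDR59 rose by 0.25 and 0.19 and MIOS fell by 0.39. SEC13 and WDR24 did not pass on their brightest probe sets. Of 4 SEC13 probe sets 2 were higher, and the average of all 4 rose by 0.074 (limma adjusted p = 0.0464). The mTOR assembly factors TELO2 and TTI1 moved apart, at 0.30 and -0.17, and both passed, with TELO2 at 0.20 when averaged.

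Textbook FOXO targets were read as well, since AKT holds FOXO factors back. The 25 symbols listed include SEPP1 and SELENOP, which name the same gene. Of these symbols 23 were measured, with 8 higher and 5 lower (56.5%, against 31.6% of all genes, and 11 of the 17 at or above the median level, against 52.4%). The count of 8 was 5 without shERCC6L replicate 2 and 4 without shERCC6L replicate 3. IGFBP1, a secreted binder of insulin-like growth factors, measured 92.7, 119 and 93.2 in shNC and 194, 213 and 214 in shERCC6L, a rise of 0.93 ± 0.080 (SE, n = 3 per group; limma adjusted p = 3.4e-05). TXNIP, an inhibitor of glucose uptake, measured 956, 953 and 939.6 in shNC and 523, 515 and 518 in shERCC6L, a fall of 0.85 ± 0.032 (adjusted p = 2.7e-07). KLF2 and PDK4 rose by 0.42 and 0.34, while CCNG2, GABARAPL1 and TNFSF10 fell by 0.41, 0.37 and 0.35. Averaged over probe sets KLF2 rose by 0.25 and CCNG2 fell by 0.17. CDKN1B and BCL2L11, at -0.20 and -0.01, did not pass.

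**Figure D4:**
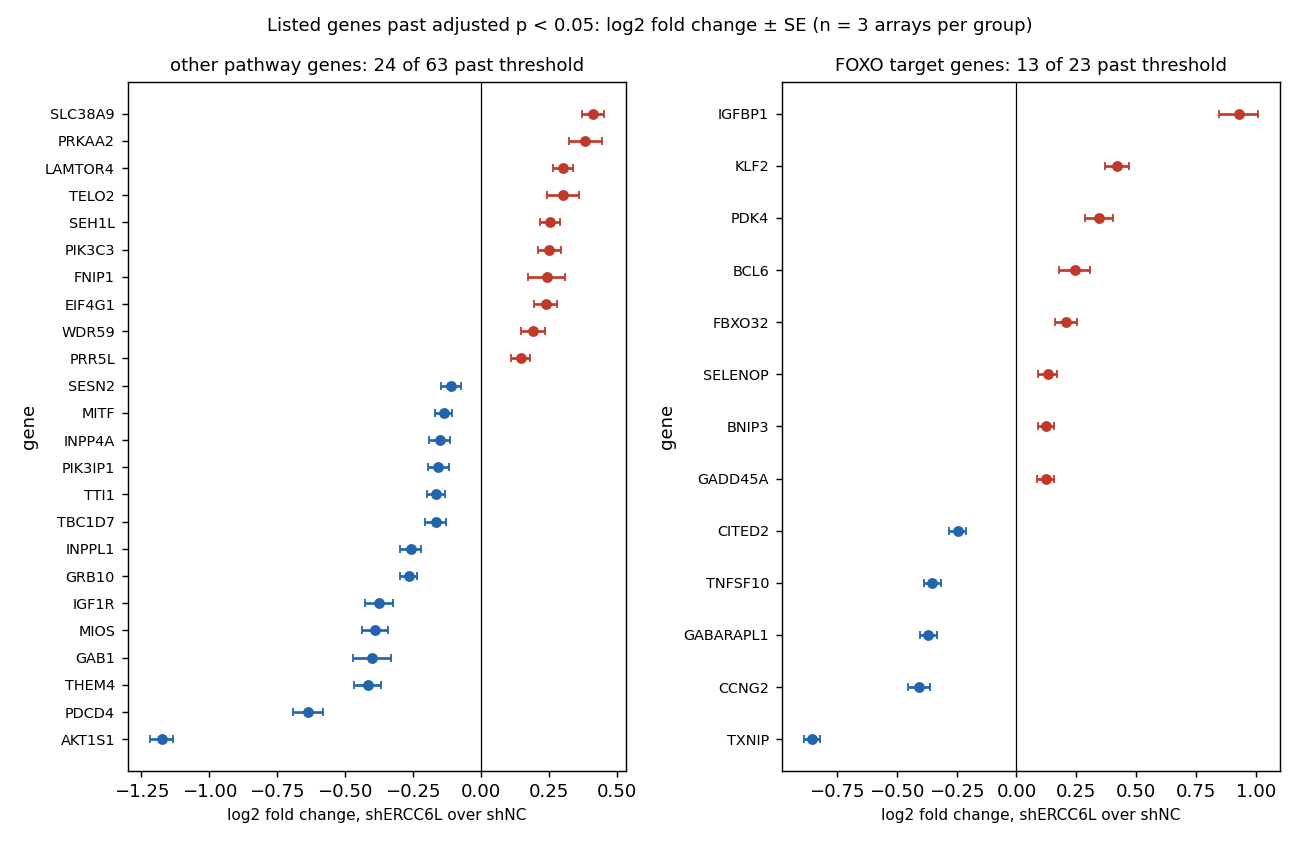
Log2 fold change with standard error (shERCC6L over shNC, n = 3 arrays per group) of the genes past the threshold among the 63 other pathway genes (left, 10 higher and 14 lower) and the 23 FOXO targets (right, 8 higher and 5 lower). AKT1S1, at -1.18, has the lowest value on the left, and TXNIP, at -0.85, and IGFBP1, at 0.93, mark the ends on the right.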

How the data were processed

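The table holds a linear intensity for each probe set and array, as deposited by the authors. Affymetrix Expression Console is the only tool named in the submitters' processing notes; how it corrected background, normalized or summarized is not given in the sources used here. Array medians ran from 60.0 to 61.6, so the deposited intensities were not rescaled and were analysed as log2(signal + 16). Without detection calls, dim probe sets have no known background, and 3 arrays a group limit precision.

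Of 49395 probe sets, 44988 had 1 gene symbol. The brightest per gene was kept (18132 genes), which sets 26856 probe sets aside. The test was limma's (version 3.58.1, R 4.3.3; lmFit and eBayes, 2-sided, no block), adjusted by Benjamini-Hochberg over all genes, threshold 0.05, and separately over all probe sets. The alternatives tried are given at the end. The fit was tested on simulated data. Full values are given for members past the threshold with an absolute log2 fold change of at least 0.3, or with probe sets called in both directions; other pathway genes and FOXO targets are given in full from 0.5, and any other gene named, markers included, was chosen after its values were seen. Members and lists were chosen with earlier results of these data known. Sequences are RefSeq's (GRCh38.p14), read with Python 3.11.15; the planned protein comparison was not run.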

Additional observations from a re-analysis of the deposited data

How the results depend on the processing

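Across 17 alternatives (a replicate block, quantile normalization, median centring, 2 filters on dim genes, of which the one at the median level was chosen after seeing the data, probe sets averaged or their median, trend with robust estimation, array weights, pseudocounts of 1 and 64, and each of the 6 arrays left out), 17 of the 23 members called kept their direction and their side of the threshold, and so did 14 of the 15 given in full. The exception among those was PHLPP2, at -0.063 (adjusted p = 0.149) with the median over probe sets. That setting turned the sign of PIK3CD (-0.016) and PIK3R3 (-0.028), and RICTOR did not pass under it (0.028) or with probe sets averaged (0.062). FOXO3 and DEPTOR were lost in 9 and 10 alternatives. The members higher numbered 12 to 13 and those lower 9 to 11 with an array left out, and ERCC6L ran from -1.24 to -1.18.

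The count of FOXO targets higher ran from 4 to 8 with an array left out. Of the 15 members that did not pass, 8 passed in at least 1 alternative: INPP5D in 7, PIK3CB in 5, RRAGA in 3, IRS2, INPP4B and TSC1 in 2 each, and IRS1 and TSC2 in 1 each, at adjusted p from 0.0017 to 0.0491. Members that did not pass changed sign as follows: FOXO1 with the median over probe sets (-0.030), with array weights (-0.030) and with arrays left out (-0.032 to 0.10); RPTOR with the median over probe sets (-0.040); RPS6KB2 with probe sets averaged (-0.0020); INPP4B with arrays left out (-0.097 to 0.0055); and MLST8 with quantile normalization (-0.023), probe sets averaged (-0.015), their median (-0.028), array weights (-0.0053) and arrays left out (-0.019 to 0.025). The causes were not tested.

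Same-numbered arrays did not deviate together (correlations 0.24, -0.14 and -0.01), so the labels' numbers were not taken as pairs. With the replicate block 12 members were higher and 10 lower, and 39 and 31 of their probe sets.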

Other observations

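The genes next to the 15 pathway genes given in full were looked up by their place in RefSeq (GRCh38.p14), among genes tested. Of these 30 neighbours, 9 were higher and 6 lower in shERCC6L. Of all genes 31.6% passed, 18.2% higher and 13.4% lower, and of those at or above the median level 52.4%. The neighbours were not split by level. Of the 30, 6 had the same call as the member beside them, a count that was not tested. Next to LAMTOR3, which fell by 1.10, the chaperone gene DNAJB14 rose by 0.27 ± 0.073 (SE, n = 3 per group; limma adjusted p = 0.0199) and DAPP1 was at -0.06 and did not pass. Beside RRAGC, which rose by 0.54, RHBDL2 fell by 0.26 and POU3F1 was dim and did not pass. TSPAN5 and METAP1, on either side of EIF4E, were at 0.19, which passed, and 0.01, which did not. PIK3C2A fell by 0.60 while its neighbour NUCB2 rose by 0.31. The 6 neighbours with the same call were SLC30A5 beside PIK3R1 (0.26), SIVA1 beside AKT1 (0.29), EXOSC10 beside MTOR (0.11), ANAPC16 beside DDIT4 (-0.12), and ADRB3 (-0.11) and ASH2L (-0.21) on either side of EIF4EBP1. All neighbours named here were chosen after their values were seen.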
